A study of Mus musculus with 8 samples.

Results

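The genes that build the N-glycan precursor and attach it to new proteins were examined in mouse plasmablasts with and without Jagn1. The members were chosen by name: 33 gene symbols, all of which are among the 24413 symbols of the count tables. They comprise 18 genes of dolichol-linked steps, 3 genes of mannose phosphate supply and 12 genes of oligosaccharyltransferase subunits. Of the 33, 32 passed the filter on low counts and were tested, and Tusc3 was the exception.

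N-glycosylation starts in the membrane of the endoplasmic reticulum (ER), where sugars are added to the lipid dolichol phosphate. The first sugars are added on the cytosolic face, the unfinished glycan is flipped across the membrane, and mannose and glucose are added on the lumenal face. Oligosaccharyltransferase then moves the finished glycan as a block onto asparagines of proteins entering the ER. Antibody heavy chains carry N-glycans, so antibody-secreting cells use this route heavily. Jagn1 encodes a membrane protein of the ER.

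B220+ B cells were taken from spleens of C57BL/6J mice and grown with lipopolysaccharide (LPS, 25 µg/ml), which drives B cells to divide and become plasmablasts. After 4 days CD22-CD138+ plasmablasts were sorted. The knockout group (Jagn1fl/fl Mb1Cre+, 4 libraries) carried floxed Jagn1 alleles together with Mb1-Cre. This Cre is expressed under the B-lineage gene Cd79a, so the deletion begins early in B cell development rather than in the plasmablast. The control group (Jagn1fl/fl, 4 libraries) carried the same floxed alleles, and no Cre is listed for it, so Cre itself and loss of Jagn1 cannot be told apart. The labels state 4 mice per genotype, and age and sex were not stated.

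Libraries held 5882912 to 10066661 counts, and the floor of 3 counts stood at 0.298 to 0.510 CPM (reads of a gene scaled to the library total). Jagn1 itself gave 19, 35, 16 and 99 counts in control replicates 1 to 4 and 2, 1, 1 and 1 counts in knockout replicates 1 to 4, so each library matched its label. Over all tested genes control replicates 1 and 4 were the libraries farthest from their group's mean, with root mean square log2 deviations of 0.498 and 0.483, against 0.261 to 0.344 elsewhere. All 8 listed plasmablast markers were found in every library, with sums of 26886 to 33992 CPM in control and 21016 to 27023 CPM in knockout libraries. Mzb1 supplied most of these sums, at 19655 to 21996 CPM in control and 15255 to 22220 CPM in knockout libraries. Of the 8 markers, 4 were lower in every knockout library than in any control library, beside 6.64% of all genes tested. Sdc1, which encodes the sorted surface protein CD138, ranged from 33.03 to 56.7 CPM in control and from 16.8 to 23.3 CPM in knockout libraries, and Jchain from 5758 to 10015 and from 3318 to 5473 CPM. Slamf7 ranged from 236 to 302 and from 120 to 152 CPM, and Tnfrsf17 from 6.28 to 13.9 and from 0.806 to 4.46 CPM. The groups overlapped for Mzb1, Prdm1, Xbp1 and Irf4. Prdm1 ranged from 864 to 1333 CPM in control and from 839 to 1047 CPM in knockout libraries. Xbp1 ranged from 106 to 559 and from 186 to 240 CPM, and Irf4 from 149 to 336 and from 193 to 254 CPM. Summed markers of undifferentiated B cells ranged from 438 to 609 and 470 to 583 CPM. Those of T cells ranged from 7.10 to 9.83 and 3.01 to 5.50 CPM, without overlap, and those of myeloid cells from 1.07 to 2.53 and 0.940 to 3.74 CPM. Lyz2, Cd14, Ncr1 and all 6 listed neutrophil and red cell markers were at 0 in every library. The part of these marker differences and of other cell types in the values below was not tested. In these bulk samples a change in the mix of cells and a change in RNA per cell cannot be told apart.

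The promoters were taken from RefSeq (GRCm38.p6), which held the window from 250 bases before to 50 bases after the start site for 28 of the 33 genes. Dpagt1, Alg2, Alg11, Ostc and Tusc3 had no promoter there, so the motif counts do not cover them. The promoters were searched on both strands for motifs of the ER stress response, because some genes of this pathway are textbook targets of that response. The ER stress element (CCAAT and CCACG with 9 bases between them) was found in 1 of the 28, Alg12. It was found in 0.170% of the 7645 tested genes with a promoter and in 0.137% of all 27025 genes with one. Its CCACG end alone was found in 16 of 28 members (57.1%) and in 53.6% of tested genes with a promoter. By class, CCACG was found in 7 of 15 dolichol-step promoters and in 8 of 10 transferase promoters. The UPR element TGACGTGG and the amino acid response motif TGATGNAA were found in 0 of 28 members, against 1.12% and 2.84% of tested genes. Printed are the promoter of Alg12, with the ER stress element in capitals from base -220 to base -202 (chr15:88819269-88819568, minus strand), and those of Rpn1 (chr6:88084223-88084522, plus strand) and Ddost (chr4:138304488-138304787, plus strand), with CCACG on either strand in capitals, because these 2 transferase subunits varied most between control libraries among members at 100 CPM or more.
Alg12: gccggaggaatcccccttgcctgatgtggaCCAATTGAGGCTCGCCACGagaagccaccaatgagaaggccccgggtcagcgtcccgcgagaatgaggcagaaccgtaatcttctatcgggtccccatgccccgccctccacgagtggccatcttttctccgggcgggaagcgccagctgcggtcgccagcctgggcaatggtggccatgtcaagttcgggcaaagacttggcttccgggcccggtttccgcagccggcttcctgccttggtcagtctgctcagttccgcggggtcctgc
Rpn1: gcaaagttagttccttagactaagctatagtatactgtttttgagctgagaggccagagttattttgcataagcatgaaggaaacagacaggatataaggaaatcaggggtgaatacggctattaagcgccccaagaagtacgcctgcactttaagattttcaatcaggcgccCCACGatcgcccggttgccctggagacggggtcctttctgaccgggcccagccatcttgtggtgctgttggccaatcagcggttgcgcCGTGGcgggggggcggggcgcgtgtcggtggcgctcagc
Ddost: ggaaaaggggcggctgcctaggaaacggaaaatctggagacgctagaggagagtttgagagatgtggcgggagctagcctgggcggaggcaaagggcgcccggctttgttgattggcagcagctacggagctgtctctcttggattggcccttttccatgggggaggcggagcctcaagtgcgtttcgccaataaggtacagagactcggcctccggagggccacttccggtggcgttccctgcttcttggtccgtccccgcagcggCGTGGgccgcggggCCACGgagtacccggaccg
A match of letters is a description of the window and not evidence of a bound site.

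The plasmablasts held far more transcript tags for the transferase than for the enzymes that assemble its substrate. The library kit reads 1 end of each transcript, so CPM values were compared between genes without division by length. Summed over the 12 transferase genes the level was 7711 ± 1331 CPM in control libraries, and summed over the 18 dolichol-step genes it was 972 ± 57.5 CPM (SD, n = 4). Rpn1, Ostc and Ddost alone made up 55.1% ± 6.69 of the reads of all 33 genes in control libraries (SD, n = 4). Among tested dolichol-step genes the median control level was 11.1 CPM, with a range from 1.43 CPM for Alg14 to 263 CPM for Mpdu1. The median was 459 CPM among the 11 tested transferase genes, from 3.99 CPM for Ost4, the smallest subunit of the complex, to 2431 CPM for Rpn1. Over all tested genes the median was 19.0 CPM.

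**Figure D1:**
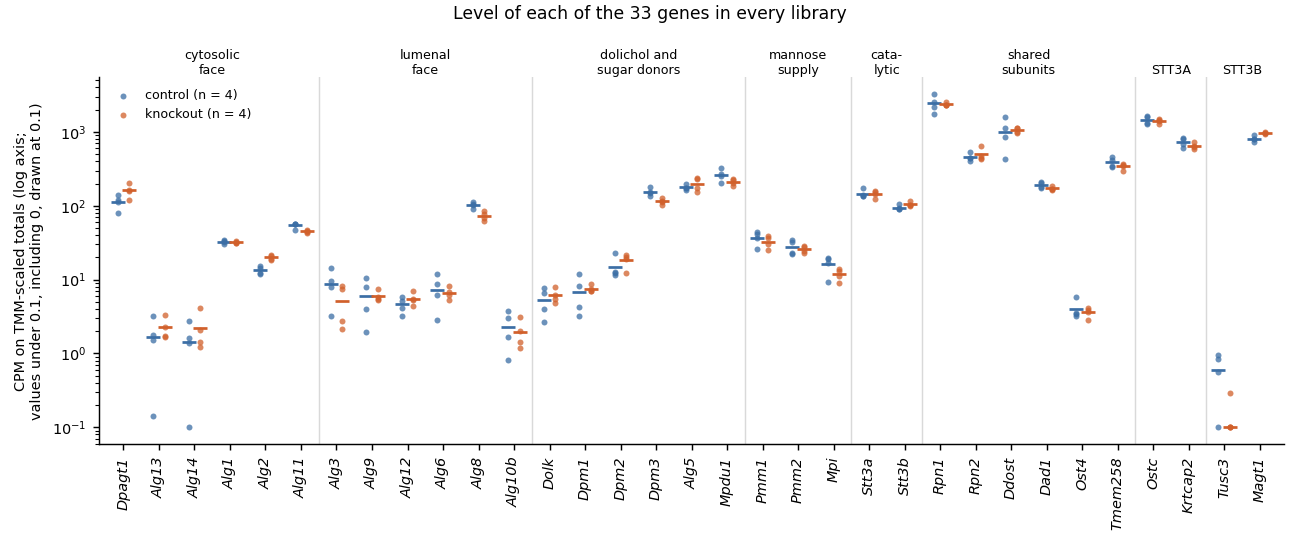
CPM of the 33 genes (log axis) by role, with 1 point per library, control in blue and knockout in orange, and a dash at each group's mean (n = 4 each). The transferase subunits other than Ost4 and Tusc3 lie above most dolichol-step genes, and the points of both groups lie close together for most genes.

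None of the 32 tested members passed the test between knockout and control. With edgeR's quasi-likelihood test the count at an adjusted p under 0.05 was 0 higher and 0 lower, beside 2.54% of all 9904 genes tested called higher and 3.19% called lower (5.74% in all). At an unadjusted p under 0.05 there were 4 members (12.5%), all of them dolichol-step genes, beside 18% of all tested genes. DESeq2 called 1 member, Alg8 (adjusted p = 0.0439), and limma-voom with sample weights called 1 other, Dpagt1 (adjusted p = 0.0262). The median log2 fold change was 0.05 over the 18 dolichol-step genes, -0.04 over the 11 transferase genes and -0.01 over all genes tested. Groups that did not overlap, with all 4 knockout libraries on 1 side of all 4 control libraries, were found for 5 of the 32 members (15.6%), beside 13.1% of all genes tested. Of these, 2 were higher in the knockout (6.45% of all genes) and 3 lower (6.64% of all genes).

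**Figure D2:**
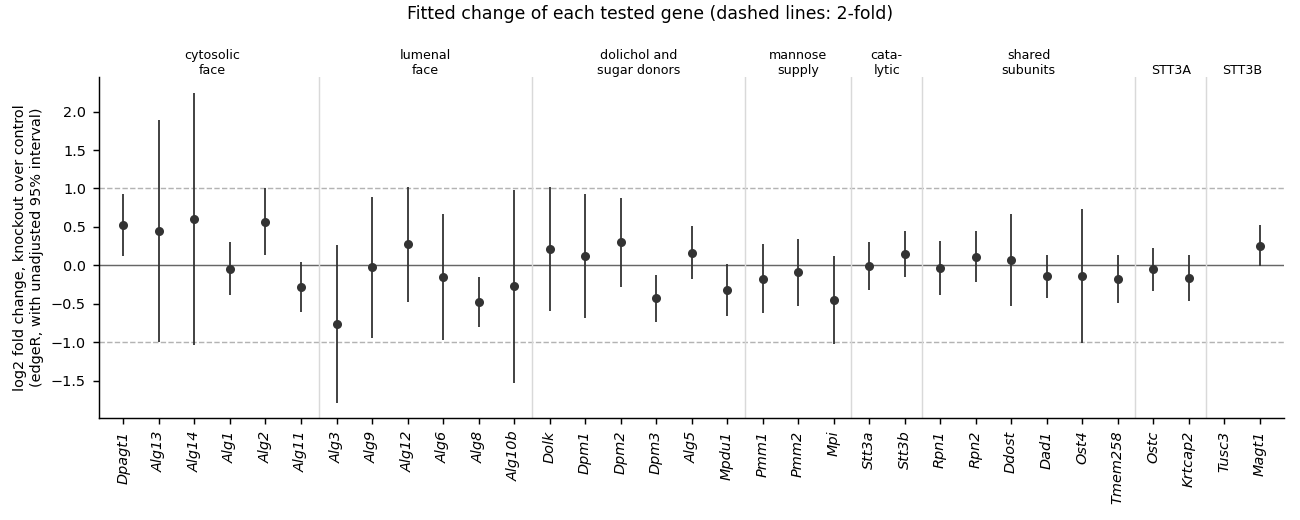
Log2 fold change of the 32 tested genes, knockout over control, with the unadjusted 95% interval from edgeR, grouped by role. The intervals of 23 of the 32 genes lie inside the dashed lines at 2-fold, and the transferase genes other than Ost4 and Ddost have narrow intervals that include 0.

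The fitted values of the assembly steps were more spread out than those of the transferase. The median absolute log2 fold change was 0.29 for the dolichol-step genes, 0.14 for the transferase genes and 0.27 for all genes tested. The dolichol-step genes are also the less abundant class, and their median standard error was 0.31 against 0.14 for the transferase. Unadjusted p fell under 0.05 for 4 of 18 dolichol-step genes (22.2%) and 0 of 11 transferase genes, beside 18% of all genes tested. Groups did not overlap for 4 of 18 (22.2%) and 1 of 11 (9.09%), beside 13.1% of all genes tested. The difference between the classes was not tested.

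On the cytosolic face, 4 of 6 genes had a positive fitted value and 2 a negative one. Dpagt1 encodes the enzyme that puts the first sugar phosphate on dolichol phosphate and so commits it to this pathway. It stood at 141, 121, 113 and 80.1 CPM in control replicates 1 to 4 and at 122, 204, 163 and 161 CPM in knockout replicates 1 to 4. Knockout replicate 1 lay inside the control range and the other 3 knockout libraries lay above it. The log2 fold change was 0.52 ± 0.19 (SE, edgeR adjusted p = 0.144), and leaving out 1 library gave 0.37 to 0.64 (edgeR adjusted p from 0.0287 to 0.433). It passed in 1 of these 8 fits, that without control replicate 1. Alg2, which adds mannoses to the growing glycan, stood at 14.5, 15.3, 12.3 and 11.9 CPM in control and 19.2, 21.7, 20.6 and 18.4 CPM in knockout replicates 1 to 4. All knockout libraries were above all control libraries, with a log2 fold change of 0.57 ± 0.21 that did not pass (edgeR adjusted p = 0.141).

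Alg11, which adds the last mannoses on the cytosolic face, pointed the other way and was chosen for its full values after these were seen. Its levels were 57.2, 57.2, 56.7 and 47.5 CPM in control and 42.6, 45.7, 47.2 and 44.7 CPM in knockout replicates 1 to 4. The groups did not overlap, though control replicate 4 lay just above the highest knockout library, and the log2 fold change was -0.28 ± 0.15 (edgeR adjusted p = 0.373). Alg1, which adds the first mannose, had the smallest spread among control libraries of all tested members, between 30.5 and 34.3 CPM in control and between 30.9 and 33.2 CPM in knockout libraries. Alg13 and Alg14, which together form the enzyme for the second sugar, were close to the floor, with 1 to 20 and 0 to 28 counts in control and 13 to 25 and 9 to 34 counts in knockout libraries. At that depth the 95% intervals were wide, from 0.50 to 3.70-fold for Alg13 and from 0.486 to 4.73-fold for Alg14. The summed level of the cytosolic-face genes was 243, 232, 217 and 178 CPM in control and 220, 307, 269 and 261 CPM in knockout replicates 1 to 4. Without Dpagt1 it was 104 ± 5.90 and 101 ± 3.17 CPM (SD, n = 4 each).

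On the lumenal face, 5 of 6 genes had a negative fitted value, beside 5077 of all 9904 genes tested. Those of Alg6, Alg9 and Alg10b changed sign in fits that left out a control library. Alg8, the enzyme of the second glucose, had the smallest p of all members. It stood at 102, 113, 89.1 and 107 CPM in control and at 67.7, 78.1, 85.3 and 63.0 CPM in knockout replicates 1 to 4. All knockout libraries lay below all control libraries, with a log2 fold change of -0.48 ± 0.15 and an adjusted p of 0.0860 in edgeR. Its 95% interval ran from 0.571 to 0.899 of the control level.

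The other genes of the lumenal face were at low levels. Alg3, which adds the first lumenal mannose, had the largest fitted value of any member but overlapped widely, at 9.69, 3.22, 14.2 and 7.99 CPM in control and 2.15, 7.48, 2.75 and 8.30 CPM in knockout replicates 1 to 4. Both groups spanned more than 3-fold, and the log2 fold change of -0.76 ± 0.48 did not pass (edgeR adjusted p = 0.447). The mannosyltransferase genes Alg9 and Alg12 and the glucosyltransferase genes Alg6 and Alg10b had control means of 2.32 to 7.34 CPM and log2 fold changes from -0.27 to 0.27. Alg12, whose promoter holds the ER stress element printed above, stood at 5.90, 5.16, 4.18 and 3.21 CPM in control and 6.98, 5.46, 4.46 and 5.29 CPM in knockout replicates 1 to 4. The summed level of the 6 lumenal-face genes did not overlap between groups, at 124 to 143 CPM in control and 91.8 to 107 CPM in knockout libraries. Alg8 supplied most of it. Without Alg8 the sums were 29.1 ± 7.54 and 25.3 ± 2.98 CPM (SD, n = 4 each).

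**Figure D3:**
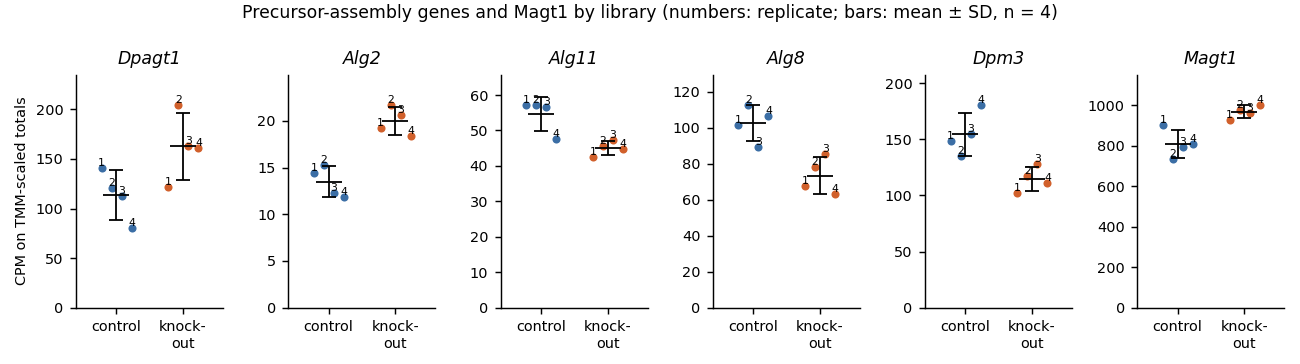
CPM of Dpagt1, Alg2, Alg11, Alg8, Dpm3 and Magt1 in each library (blue control, orange knockout, numbered by replicate), with mean and SD (n = 4 each) and axes from 0. Alg2 and Magt1 are higher and Alg11, Alg8 and Dpm3 lower in every knockout library than in any control library, and Dpagt1 overlaps through knockout replicate 1.

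Among the genes that make dolichol phosphate and its sugar-carrying forms, 4 of 6 had positive fitted values and 2 negative ones. The lumenal enzymes take mannose from dolichol-phosphate-mannose, which a synthase of 3 subunits makes. Dpm3, the subunit that tethers the catalytic one to the membrane, stood at 148, 135, 154 and 181 CPM in control and at 102, 117, 128 and 111 CPM in knockout replicates 1 to 4. Every knockout library was below every control library, and the log2 fold change of -0.43 ± 0.14 did not pass (edgeR adjusted p = 0.104). The partners showed no such separation. Dpm1, the catalytic subunit, had a mean of 6.85 ± 3.95 CPM in control and 7.54 ± 0.752 CPM in knockout, and Dpm2, the regulatory subunit, 14.9 ± 5.44 and 18.2 ± 4.06 CPM (SD, n = 4 each).

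Mpdu1, which is needed for the use of dolichol-linked mannose and glucose, was the most abundant dolichol-step gene. It stood at 328, 249, 274 and 203 CPM in control and 203, 226, 234 and 183 CPM in knockout replicates 1 to 4, and its log2 fold change was -0.32 ± 0.16 (adjusted p = 0.314 in edgeR). Control replicate 1 was the highest library and control replicate 4 lay within the knockout range. Alg5, the synthase of dolichol-phosphate-glucose, stood at 173, 175, 198 and 163 CPM in control and 172, 240, 232 and 152 CPM in knockout replicates 1 to 4, so that the knockout group spread around the control group on both sides. Dolk, the kinase that makes dolichol phosphate, had means of 5.23 ± 2.29 and 6.11 ± 1.37 CPM (SD, n = 4 each).

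Mannose phosphate supply did not pass for any of its 3 genes, all of which had negative fitted values. Mpi, which makes mannose 6-phosphate from a glycolytic sugar phosphate, stood at 18.8, 9.35, 16.7 and 19.6 CPM in control and 8.996, 12.9, 14.03 and 11.2 CPM in knockout replicates 1 to 4 (log2 fold change -0.46 ± 0.27, edgeR adjusted p = 0.412). Control replicate 2 lay within the knockout range. The phosphomannomutase gene Pmm1 stood at 44.0, 41.7, 36.5 and 25.9 CPM in control and 39.2, 30.3, 25.2 and 36.1 CPM in knockout replicates 1 to 4. Pmm2, the paralog linked to the most common congenital disorder of glycosylation, stood at 34.0, 32.4, 22.005 and 22.9 CPM in control and 24.2, 28.0, 29.0 and 23.2 CPM in knockout replicates 1 to 4. The groups overlapped for each paralog. Pmm2 gave 43.0% ± 3.88 of the reads of the pair in control and 44.7% ± 7.36 in knockout libraries (SD, n = 4 each). The difference did not pass in an exact permutation test (two-sided p = 0.657, adjusted over 3 read shares 0.657).

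The transferase subunits stood at close to the same level in both genotypes. Their summed level was 6397, 6917, 8157 and 9373 CPM in control and 7449, 7641, 7941 and 7791 CPM in knockout replicates 1 to 4. The knockout libraries lay inside the control range, with a mean of 7706 ± 210 CPM against 7711 ± 1331 CPM (SD, n = 4 each). Fitted log2 fold changes of the 11 tested genes ran from -0.17 for Tmem258 to 0.26 for Magt1. For 10 of the 11 the 95% interval excluded a 2-fold change in either direction. Ost4, at 21 to 42 counts a library, was the exception, with an interval from 0.498 to 1.66-fold.

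Oligosaccharyltransferase exists in 2 forms with different catalytic subunits. STT3A works at the translocon as proteins enter the ER, and STT3B can also act on sites that were skipped. Stt3a stood at 138, 140, 136 and 172 CPM in control and 155, 144, 159 and 124 CPM in knockout replicates 1 to 4. Stt3b stood at 89.9, 90.9, 92.1 and 105 CPM in control and 101, 116, 102 and 99.4 CPM in knockout replicates 1 to 4. Control replicate 4 was the highest control library for both, and the groups overlapped for both, with log2 fold changes of -0.01 ± 0.14 and 0.15 ± 0.14 (SE). Stt3a gave 60.7% ± 1.04 of the reads of the pair in control and 58.0% ± 3.07 in knockout libraries (SD, n = 4 each). The difference of -2.63 percentage points did not pass (exact permutation test, two-sided p = 0.229, adjusted over 3 read shares 0.343; the smallest p that 4 against 4 allows is 0.0286).

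The subunits found in 1 of the 2 forms also did not pass the test. Ostc and Krtcap2 encode the subunits that join STT3A to the translocon. Ostc stood at 1295, 1304, 1614 and 1625 CPM in control and 1411, 1477, 1457 and 1282 CPM in knockout replicates 1 to 4. Krtcap2 stood at 823, 680, 802 and 603 CPM in control and 589, 654, 621 and 736 CPM in knockout replicates 1 to 4. The fitted log2 values were -0.05 ± 0.13 for Ostc and -0.16 ± 0.14 for Krtcap2, and the groups overlapped for both.

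Magt1 encodes the oxidoreductase subunit of the STT3B form, which helps to glycosylate sites near cysteines. It stood at 901, 735, 795 and 809 CPM in control and 926, 978, 964 and 1001 CPM in knockout replicates 1 to 4. All knockout libraries were above all control libraries, by a margin that is small for control replicate 1, and the log2 fold change was 0.26 ± 0.12 (edgeR adjusted p = 0.296). The 95% interval ran from 0.993 to 1.44-fold. Tusc3, its paralog, gave 6, 6, 4 and 0 counts in control and 0, 2, 0 and 0 counts in knockout replicates 1 to 4 and was too low to test. Magt1 therefore supplied nearly all reads of the pair, 99.9% ± 0.0553 in control and 100.0% ± 0.0147 in knockout libraries (SD, n = 4 each). The exact permutation test gave a two-sided p of 0.143 (adjusted over 3 read shares 0.343). With so few Tusc3 counts this test could not decide whether the share differed. Set against the STT3A-form subunits, a measure chosen after the values were seen and so not tested, Magt1 made up 29.9%, 27.0%, 24.8% and 26.6% of the reads of Magt1, Ostc and Krtcap2 in control and 31.7%, 31.5%, 31.7% and 33.2% in knockout replicates 1 to 4.

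Among the subunits that both forms share, Ddost differed widely between control libraries and Rpn1 less so. Rpn1 encodes ribophorin I, which binds some of the proteins to be glycosylated, and was the most abundant member, at 1772, 2170, 2530 and 3251 CPM in control and 2323, 2323, 2509 and 2300 CPM in knockout replicates 1 to 4. Ddost, which encodes the subunit called OST48, stood at 432, 864, 1118 and 1593 CPM in control and 994, 971, 1131 and 1119 CPM in knockout replicates 1 to 4. Control replicate 1 was the lowest and control replicate 4 the highest of all 8 libraries for both genes, and all knockout libraries lay between them. All knockout libraries lay inside the control range for 2 of the 11 tested transferase genes (18.2%), beside 32.2% of all genes tested. The highest control value of Ddost was 3.69 times the lowest, a spread wider than that of 97.9% of the 1587 tested genes at 100 CPM or more in control libraries, for which the median was 1.48 times. For Rpn1 it was 1.83 times, wider than that of 75.2% of these genes. The log2 fold changes between genotypes were 0.07 ± 0.28 for Ddost and -0.04 ± 0.17 for Rpn1 (edgeR adjusted p = 0.933 and 0.936).

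The other shared subunits varied less. Tmem258 stood at 331, 342, 414 and 465 CPM in control and 344, 371, 359 and 300.5 CPM in knockout replicates 1 to 4. Dad1, named for a cell death phenotype of its mutant, stood at 172, 178, 201 and 208 CPM in control and 166, 169, 167 and 185 CPM in knockout replicates 1 to 4. Both had slightly negative fitted values, -0.17 ± 0.15 and -0.14 ± 0.13, with overlapping groups. Rpn2, the ribophorin II gene, ranged from 409 to 539 CPM in control and from 433 to 640 CPM in knockout libraries, where knockout replicate 4 was the highest. Without Rpn1 and Ddost the summed transferase level was 4279 ± 305 CPM in control and 4288 ± 107 CPM in knockout libraries (SD, n = 4 each).

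**Figure D4:**
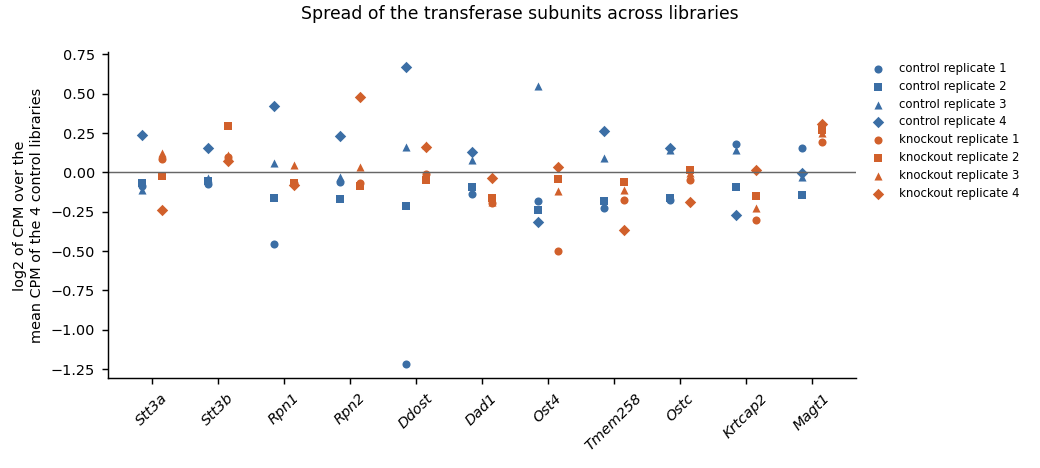
Log2 of each library's CPM over the mean CPM of the 4 control libraries, for the 11 tested transferase genes (blue control, orange knockout, marker shape by replicate). Ddost has the widest spread among control libraries, from replicate 1 at the bottom to replicate 4 at the top, Rpn1 follows the same order over a smaller span, and the knockout libraries of both sit close together between them.

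Control replicate 4 was the highest control library for 8 of the 11 tested transferase genes and for 6 of the 18 dolichol-step genes, beside 31.5% of all tested genes. Control replicate 1 was the lowest for 6 of 11 and 7 of 18, beside 32.5% of all tested genes. Among the 8 plasmablast markers, control replicate 1 was the lowest and control replicate 4 the highest control library for 3, the transcription factor genes Prdm1, Xbp1 and Irf4, and not for Sdc1, Slamf7, Mzb1, Jchain and Tnfrsf17. The share of all tested genes with both was not counted, so 3 of 8 has no background beside it. The part of Prdm1, Xbp1 and Irf4 in the spread of Ddost and Rpn1 was not tested. The SD of the knockout group was below that of the control group for 27 of 32 members (84.4%) and for 71.2% of all genes tested.

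The neighbouring steps of the pathway were read from a list of 27 genes, of which 26 were tested. Of these 26, 1 passed, beside 5.74% of all genes tested, a share that 1 of 26 does not exceed. It was Gnpnat1, which encodes an enzyme of the route to UDP-GlcNAc, the sugar donor that DPAGT1 uses. It rose from 7.59, 12.1, 10.7 and 17.4 CPM in control to 31.6, 36.5, 22.4 and 20.6 CPM in knockout replicates 1 to 4 (log2 fold change 1.2 ± 0.27, edgeR adjusted p = 0.0159, with no overlap between groups). Leaving out knockout replicate 1 or 2, or control replicate 2 or 3, ended this call, with adjusted p of at most 0.0858, and the log2 fold change ranged from 1.04 to 1.44 when 1 library was left out. None of the 6 genes of dolichol supply passed. Dhdds, a subunit of the enzyme that makes the dolichol chain, had a fitted log2 value of 0.48 ± 0.17 (edgeR adjusted p = 0.123) and passed in 1 of the 8 fits that leave out 1 library, that without control replicate 4 (adjusted p = 0.0125). These fits gave 0.40 to 0.63 and adjusted p of up to 0.295. Mvd, a mevalonate pathway gene upstream of dolichol, had -0.73 ± 0.26 (edgeR adjusted p = 0.136) and this value moved with the control library left out. It was -0.95 without control replicate 4, the only fit of the 8 in which it passed (adjusted p = 0.00625), and -0.35 without control replicate 1 (adjusted p = 0.248). None of the 7 genes that act after transfer passed. The smallest p among them was that of Prkcsh, the noncatalytic subunit of glucosidase II, whose log2 fold change was 0.52 ± 0.20 (edgeR adjusted p = 0.179). Leaving out 1 library gave 0.38 to 0.78, and it passed in 1 of the 8 fits, that without control replicate 1 (adjusted p = 0.0022; up to 0.397 in the others). The median log2 fold change over the 26 tested genes was 0.17, beside -0.01 over all genes tested. Unadjusted edgeR p fell under 0.05 for 6 of the 26 (23.1%), beside 18% of all genes tested. Groups did not overlap for 2 of the 26 (7.69%), Gnpnat1 and Dhdds, beside 13.1% of all genes tested.

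Some counts may hold reads of other genes, or lack reads that fell on bases shared with another gene. In the GENCODE M21 annotation of the mm10 build, 895 exon bases of Dpm1 are shared with Gm20716 on the same strand. On the opposite strand Ost4 shares 677 bases with Agbl5, Alg9 500 with 1110032A03Rik and Alg1 472 with Eef2kmt. Gnpnat1 shares 3878 with Styx. Whether the counting used strand, and how it treated reads on shared bases, was not stated.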

How the data were processed

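RNA was measured in 8 plasmablast libraries, 4 knockout and 4 control. Per the labels' protocols, libraries were built from 500 ng of Trizol-extracted RNA with Lexogen's QuantSeq 3′ mRNA-Seq kit (FWD). The deposited files hold raw read counts per gene symbol, 1 file per library. The submitters' processing notes name HTSeq 0.6.1, TopHat2 2.1.1, BWA 0.7.12 and SAMtools 1.3.1, with no roles, and the mm10 build. PCR copies may be among the counts, so the floor covers counting error only. The SE, intervals and SD also include the spread between libraries.

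Counts were filtered with filterByExpr (minimum count 10, minimum total 15), leaving 9904 genes, scaled with TMM factors and tested with edgeR 4.0.16 (R 4.3.3): quasi-likelihood F-test, robust, group as the only term, two-sided, Benjamini-Hochberg adjustment over all genes tested, threshold 0.05. SE is the log2 fold change over the square root of F. The 95% intervals are not adjusted. CPM uses TMM-scaled totals. Deviations between libraries used log2(CPM + 1). Steps were tested on simulated data. Library pairs of a group differed by 6.60 to 94.2 chi-square per degree of freedom, so none was a copy. Alternatives were DESeq2 1.42.0, limma-voom (limma 3.58.1), other scalings and filters, a replicate block and leaving out libraries.

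The members and lists were chosen with earlier results of these data known. Values in every library are given for the 2 members with the smallest p in each role group, both members of each paralog pair and the 3 most abundant of each class, and for other genes where stated or shown in a figure. From the neighbouring genes, called ones are named, and Dhdds, Mvd and Prkcsh were added after their values were seen.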

Additional observations from a re-analysis of the deposited data

Results flagged for a closer look

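Of 66 groups of 4 libraries checked (33 genes in 2 groups), 8 held a library far from the other 3. Chance would flag about 1 in 20, or 3.3, if the values were normal and the groups independent. The genes share the same libraries, so the excess over 3.3 was not tested. In control replicate 4, Alg11 was low at 47.5 CPM (others 56.7 to 57.2), and Stt3a and Stt3b were high at 172 CPM (others 136 to 140) and 105 CPM (others 89.9 to 92.1). Dpm2 was high in control replicate 2 at 23.0 CPM (others 11.7 to 12.7), and Ost4 in control replicate 3 at 5.85 CPM (others 3.21 to 3.51). In the knockout, Stt3b was high in replicate 2 at 116 CPM (others 99.4 to 102), and Rpn1 in replicate 3 at 2509 CPM (others 2300 to 2323). Tusc3 was flagged in knockout replicate 2 at 0.288 CPM, which is 2 counts, under the floor, because the others were at 0. Ddost, despite its wide spread, was not among them.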

How the results depend on the processing

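The 17 alternatives changed few calls among the members. The count of members called was 0 in 14 of them. It was 1 higher (Dpagt1, a dolichol-step gene) with limma-voom and without control replicate 1, and 1 lower (Alg8, a dolichol-step gene) with DESeq2, and leaving out 1 library gave 0 to 1 member called higher. No transferase subunit was called under any of the 17. Of 540 values of members under these alternatives, 511 kept direction and side of the threshold, 26 values of 13 genes that were not called changed sign, and 3 became calls. Without control replicates 1 and 4 no member was called, and 6 had an unadjusted p under 0.05.

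Over all genes, limma-voom called 480 higher and 590 lower (252 and 316 with edgeR). Leaving out 1 library gave 137 to 411 higher and 133 to 481 lower, and leaving out control replicates 1 and 4 gave 438 higher. Of the neighbouring genes, limma-voom called 3 higher and 2 lower, the fit without control replicates 1 and 4 called 3 and 3, and leaving out 1 library gave 0 to 2 higher and 0 to 2 lower. The cause was not tested.

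The share of Pmm2 differed by -1.19 to 3.94 percentage points when 1 library was left out, and with 3 libraries in a group the smallest exact p is 0.0571. Same-numbered knockout and control libraries did not deviate together (correlations -0.01 to 0.07 across genes). The labels list no pairing, and these correlations cannot tell whether samples were paired. With the replicate block 0 members were called, its smallest member adjusted p was 0.140 (Alg8), and no member or neighbouring gene changed its call. In 0 of 4 cases did a knockout library correlate best with the control library of its own number. Depth limits Alg10b, Alg13, Alg14, Ost4 and Tusc3 most.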
